A study of Mus musculus with 4 samples.

Results

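Cdon, Boc and Gas1 encode the cell-surface co-receptors of the hedgehog pathway, and their 3 rows were taken by gene symbol from a table of 17712 genes measured in mouse embryonic forelimbs. All 3 passed the filter on low values. RNA sequencing compared wild-type and Shh null forelimbs of littermate Swiss Webster embryos, an outbred stock, with 2 libraries per genotype. The embryos had 33 to 35 somites; the age label gives E10.25 and the source label E10.5. No treatment is named, and the labels do not describe the Shh allele or say how many embryos a library holds. The design text calls the replicates technical, and no label names separate animals. The p-values therefore rest on the spread among libraries alone, which may be technical. In the wild-type libraries the sum of 7 erythroid genes ran from 2946 to 11005 CPM (read counts scaled to library size). What material the replicates share was not tested.

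Sonic hedgehog is a secreted protein made at the posterior edge of the limb bud. It binds the receptor Patched1, which then stops inhibiting Smoothened, so that Gli transcription factors activate target genes. Cdon and Boc are transmembrane proteins with immunoglobulin and fibronectin type III repeats, and Gas1 is tethered to the membrane by a lipid anchor. Each of them binds the ligand and helps it to act on Patched1. In other embryonic tissues, such as the neural tube, hedgehog signalling is known to lower transcription of the genes for these co-receptors.

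Cdon and Gas1 transcripts rose in Shh null forelimbs, by 71.2% and 56.8% of the wild-type mean. Boc was 37.4% above its wild-type mean and was not called. In all 3 genes both Shh null libraries lay above both wild-type libraries, as they did in 25.1% of all tested genes. The receptor gene Ptch1 and the target gene Gli1 fell in the same libraries, so Cdon and Gas1 and these pathway readouts changed in opposite directions.

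The libraries held between 18456502 and 29620468 reads assigned to genes. CPM is the read count relative to library size, scaled for library composition. Wild type had 11.4 and 7.88 CPM of Shh and Shh null had 3.15 and 2.42 CPM, in the direction the labels give. Libraries of 1 genotype differed by more than sampling noise, with chi-squares over genes of 22.4 (wild type) and 14.8 (Shh null) for each degree of freedom. Against Shh null 1 and 2, wild type 1 gave chi-squares of 45.1 and 24. Wild type 2 gave 21.1 and 17.2, both smaller than the 22.4 that separated it from wild type 1. Pearson correlations of log2 values were higher within genotypes (0.9925 in wild type, 0.9932 in Shh null) than between them (0.9831 to 0.9896). The tissue label was checked against limb markers: all 8 limb mesenchyme markers, Prrx1 and Tbx5 among them, were found in every library. The 3 hindlimb markers summed to 5.07 to 6.18 CPM in wild type and 6.404 to 8.46 CPM in Shh null, without overlap. Single tested genes separated in this direction in 25.1% of cases. Of 2 tested hindlimb genes, 0 were called by limma, edgeR or DESeq2, and 1 was higher with a limma p under 0.05 before adjustment. This was Isl1, with means of 1.44 CPM (wild type) and 3.68 CPM (Shh null). Tbx4 went the other way, with means of 4.11 and 3.401 CPM. The untested Pitx1 had 3 and 16 reads. These genes were named after their values were seen. Sex-linked genes differed between the genotypes (4 Y-linked genes lower and Xist higher, 5 of 5 tested), but Xist and the Y-linked genes were found in every library. Xist had means of 188 CPM in wild type and 495 CPM in Shh null. The Y-linked gene Ddx3y, named after its values were seen, had means of 113 and 40.7 CPM. The part of a differing sex makeup in the results on the co-receptors was not tested. In bulk tissue, fewer cells of a type and less RNA per cell cannot be told apart.

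Cdon lies on chromosome 9 (35421128 to 35507652, plus strand, mm10; ENSMUSG00000038119.15) and has 6 annotated transcripts. Wild type 1 and 2 had 150.2 and 173 CPM of Cdon, and Shh null 1 and 2 had 301 and 251 CPM. The lower Shh null library was 1.46 times the higher wild-type library, so the groups did not overlap. The means were 161 ± 15.9 and 276 ± 35.4 CPM (SD, n = 2), a ratio of 1.71. On the scale of log2(CPM + 1), used for every limma log2 fold change given here, the change was 0.77 ± 0.12 (SE; 95% interval 0.50 to 1.03; limma, Benjamini-Hochberg adjusted p = 0.0111). Cdon had the 93rd smallest p-value and the 158th largest rise of 13224 tested genes.

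Gas1 lies on chromosome 13 (60174405 to 60177365, minus strand; ENSMUSG00000052957.8). Its exons overlap an annotated long non-coding RNA on the other strand, Gm48488. How strand was counted is not given in the sources used here. Reads of this RNA could be counted with Gas1. For Gas1, wild type 1 and 2 had 144 and 149 CPM, against 248 and 209.9 CPM in Shh null 1 and 2. The wild-type libraries were nearly alike and the Shh null libraries both stood well above them, at least 1.41 times the higher wild-type value. The means were 146 ± 3.65 and 229 ± 27.2 CPM (SD, n = 2), a ratio of 1.57 and a log2 fold change of 0.64 ± 0.11 (SE; 95% interval 0.40 to 0.88; limma, adjusted p = 0.0156).

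Boc lies on chromosome 16 (44485049 to 44558897, minus strand; ENSMUSG00000022687.12). Its values were 47.6 and 50.4 CPM in wild type, and 75.8 and 58.7 CPM in Shh null. The groups did not overlap, but the second Shh null library was only 1.17 times the higher wild-type library. The means were 49.0 ± 1.98 and 67.3 ± 12.1 CPM (SD, n = 2), a ratio of 1.37. The log2 fold change was 0.44 ± 0.13 (SE; 95% interval 0.15 to 0.73), with an unadjusted p of 0.00763 and an adjusted p of 0.119 in limma. Boc had the 851st smallest p-value of all tested genes and was not called by limma, edgeR (adjusted p = 0.106) or DESeq2 (adjusted p = 0.0688). The authors' deposited table gives log2 fold changes of 0.78 for Cdon, 0.65 for Gas1 and 0.46 for Boc, with false discovery rates of 1.3e-05, 0.000242 and 0.0666.

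**Figure D1:**
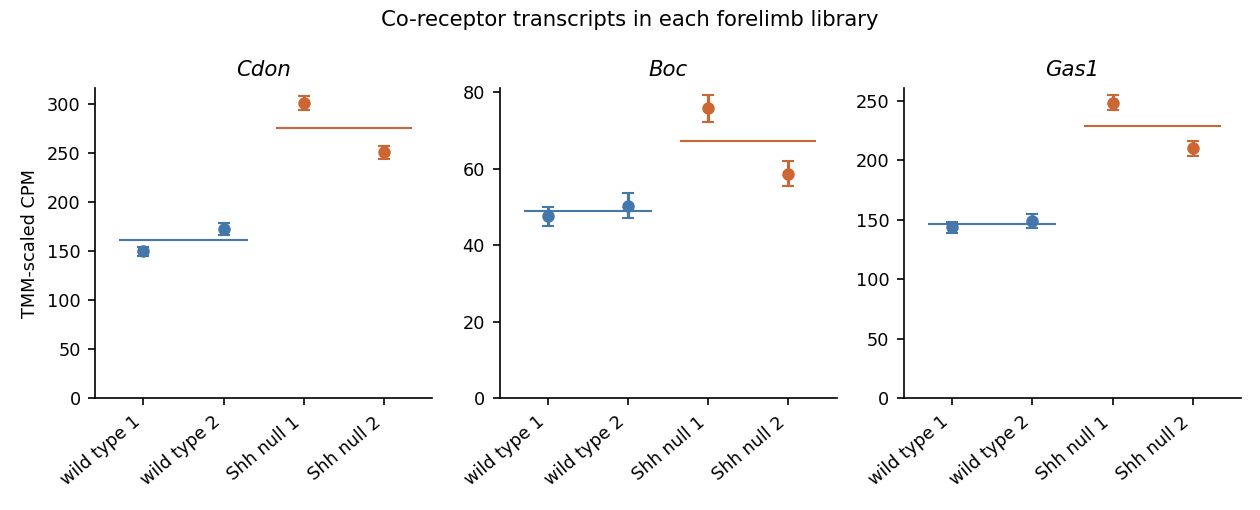
TMM-scaled CPM (vertical axis, from 0) of Cdon, Boc and Gas1 in the 4 libraries (horizontal axis); points are libraries, bars their 95% Poisson counting intervals and horizontal lines the group means. In each gene both Shh null libraries (orange) lie above both wild-type libraries (blue), and Shh null 1 lies above Shh null 2.

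Promoter sequences are shown because Cdon and Gas1 rose together. RefSeq promoters (GRCm38.p6, the assembly of mm10) were found for Cdon and Gas1, and the 250 bases before the annotated start are printed 5′ to 3′, with matches to the searched motifs in capitals.
Cdon: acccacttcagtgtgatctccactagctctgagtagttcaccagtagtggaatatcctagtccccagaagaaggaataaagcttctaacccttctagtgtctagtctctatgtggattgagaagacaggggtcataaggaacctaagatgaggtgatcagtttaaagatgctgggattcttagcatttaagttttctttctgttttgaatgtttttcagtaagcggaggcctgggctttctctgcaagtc
Gas1: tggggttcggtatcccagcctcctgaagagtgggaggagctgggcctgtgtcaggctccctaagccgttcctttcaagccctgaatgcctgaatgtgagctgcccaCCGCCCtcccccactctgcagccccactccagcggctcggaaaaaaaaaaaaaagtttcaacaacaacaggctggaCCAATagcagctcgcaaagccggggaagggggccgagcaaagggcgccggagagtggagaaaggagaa
The Cdon window (chr9:35451826-35452075, plus strand) lies inside the gene, before the first base of transcript Cdon-201 and 30.9 kb downstream of the first annotated start. The data do not resolve which start is used. The Gas1 window (chr13:60177536-60177785, minus strand) lies upstream of the gene. The motifs searched on both strands were the Gli consensus GACCACCCA, its core CCACCC (contained in the consensus), the CCAAT box, the GC box GGGCGG and the TATA box TATAAA. The Gas1 window held a CCAAT box at positions -68 to -64 and a GC box on the other strand at positions -144 to -139, counted back from the start. The Cdon window held 0 matches. Of 32851 promoter windows of this length 0.225% held the Gli consensus, 28.1% its core, 33.8% the CCAAT box, 32.7% the GC box and 12.4% the TATA box. The windows also differed in base composition, with 42.8% G and C and 1 CpG in Cdon and 58.8% and 10 CpG in Gas1, against a median of 52.4% and 6 over all windows.

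Of the 3 co-receptor genes, 2 were called higher by limma, in a comparison in which 2.48% of the tested genes were called in either direction, 1.24% of them higher and 1.24% lower. The same 2 were called by edgeR and by DESeq2, which called 2.45% and 3.98% of the tested genes. With an unadjusted limma p under 0.05, as Boc had, 9.5% of the tested genes were higher, 9.02% lower and 18.5% different in either direction. The calls were 164 higher and 164 lower, and 241 and 123 with libraries scaled by total reads only. The median log2 fold change was 0.64 for the 3 co-receptor genes and -0.0005 for all tested genes.

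**Figure D2:**
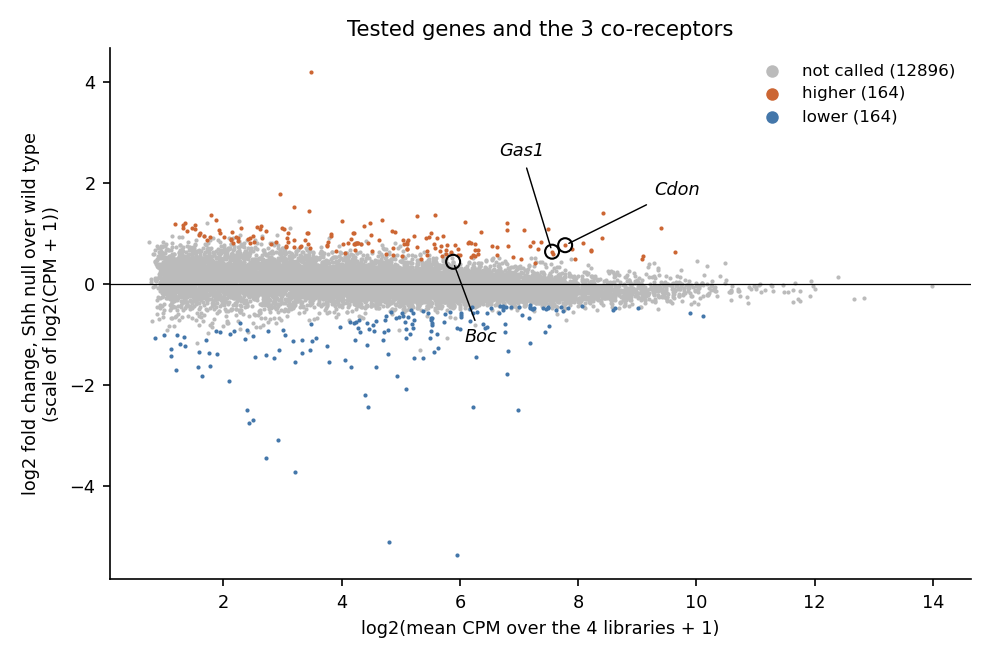
Log2 fold change of Shh null over wild type (vertical axis) against log2 of the mean CPM plus 1 (horizontal axis) for the 13224 tested genes, coloured by limma call, with the co-receptor genes circled. Cdon (0.77) and Gas1 (0.64) lie among the genes called higher, and Boc (0.44) lies above 0 among the genes not called.

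The reads behind each value were many: Cdon had between 3134 and 7265 reads per library, Gas1 between 2699 and 5987, and Boc between 914 and 1828. The spread between the Shh null libraries was larger than this counting error. Cdon was 1.20 times, Boc 1.29 times and Gas1 1.18 times as high in Shh null 1 as in Shh null 2, whereas the log2 difference between these libraries had a median of 0.0033 over all tested genes. The co-receptors' log2 differences ranked at the 88.1st, 94.5th and 86.4th percentile of the tested genes. The 164 genes called higher had a median ratio of 1.08 between the same libraries. Between wild type 1 and wild type 2 the ratios were 0.87 for Cdon, 0.94 for Boc and 0.97 for Gas1.

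The calls were lost without the first Shh null library. That fit holds 1 Shh null library, which is assumed to vary like the wild-type libraries. In it Cdon had a log2 fold change of 0.64 (limma, adjusted p = 0.162), Gas1 of 0.52 (adjusted p = 0.19) and Boc of 0.26 (adjusted p = 0.566), and 15 genes were called higher in all. Without the second Shh null library, under the same limit, they had 0.90 (0.0371), 0.76 (0.0387) and 0.62 (0.0893), and 39 genes were called higher. The Cdon and Gas1 calls also ended in limma without the intensity trend, at adjusted p = 0.0605 and 0.0733 with the same log2 fold changes. Under 15 alternative settings each gene was higher in Shh null in 15 of 15. This direction was fixed where 1 library was left out, because the groups did not overlap. The other filters, the replicate block and the fit without the trend leave the log2 fold change unchanged, so they cannot test it either. Cdon and Gas1 were each called in 13 of the 15. With all 4 libraries, adjusted p ran from 1.16e-06 (DESeq2) to 0.0605 (limma without the trend) for Cdon. For Gas1 it ran from 3.6e-05 to 0.0733 in the same fits. Boc was called in 0 of these 15 (adjusted p between 0.0506 and 0.566).

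**Figure D3:**
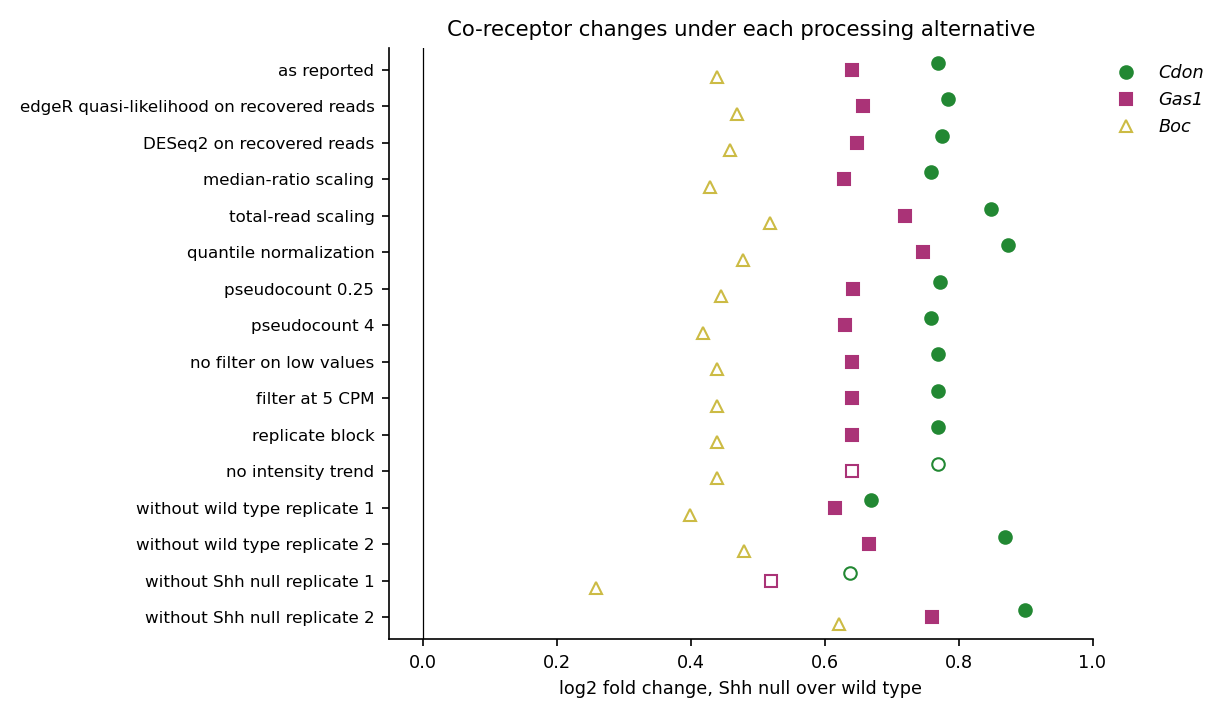
Log2 fold change of Shh null over wild type (horizontal axis) of Cdon, Gas1 and Boc under the reported settings and 15 alternatives (vertical axis); filled symbols have an adjusted p under 0.05. All values lie above 0, the lowest being 0.26 for Boc without Shh null replicate 1.

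The effects were also compared between the co-receptors, with the within-library difference in log2(CPM + 1) of each of the 3 pairs. These differences are not scaled for length and give no order of levels, so only their change between genotypes is read. For wild type, Cdon minus Boc was 1.64 and 1.76, and for Shh null 1.98 and 2.08, a change of 0.33 that was larger than the spread within either genotype. Cdon minus Gas1 was 0.06 and 0.21 against 0.28 and 0.26, a change of 0.13 that was smaller than the gap between the wild-type libraries. Boc minus Gas1 was -1.57 and -1.54 against -1.70 and -1.82, a change of -0.20 that exceeded the spread within either genotype. The groups did not overlap in any pair. With so few libraries 0.333 is the smallest two-sided p that exact permutation allows, so these sizes are a description.

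The order of levels between genes was read only per length, as CPM per kilobase of the union of annotated exons (7715 bases for Cdon, 4451 for Boc and 2961 for Gas1). Gas1 had the highest level in each of the 4 libraries, at 49.3 ± 1.23 CPM per kb in wild type and 77.4 ± 9.17 in Shh null (SD, n = 2). Cdon followed at 20.9 ± 2.06 and 35.8 ± 4.59, and Boc was lowest at 11.0 ± 0.445 and 15.1 ± 2.71. The order was the same in every library, and within each genotype the gaps between neighbours were larger than the spread of the libraries. In wild type, Gas1 lay at the 92.0th, Cdon at the 80.2nd and Boc at the 65.6th percentile of 12443 genes with an annotated length. Gas1 made up 61.7% and 59.8% of the length-scaled sum of the 3 genes in the wild-type libraries and 59.9% and 60.8% in the Shh null libraries, and these ranges overlap. The share of Cdon was 24.8% and 26.7% in wild type and 27.9% in both Shh null libraries. The share of Boc was 13.6% and 13.5% against 12.2% and 11.3%. Without scaling by length, Cdon (45.2%) would pass Gas1 (41.0%) in wild type.

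Ptch1, which encodes the receptor that the co-receptors work with, had 32.4 and 35.1 CPM in wild type but 5.93 and 7.14 CPM in Shh null, or 2.38 ± 0.136 and 0.461 ± 0.0601 CPM per kb (SD, n = 2). The summed level of the 3 co-receptors per kb was 34.5 and 33.9 times that of Ptch1 in the wild-type libraries and 335 and 232 times in the Shh null libraries. The ratio of Cdon to Ptch1 stood at 8.53 and 9.05 for wild type, against 93.4 and 64.7 for Shh null. That of Boc was 4.68 and 4.57 against 40.7 and 26.2, and that of Gas1 21.3 and 20.3 against 201 and 141. None of these ratios overlapped between the genotypes. They combine a fall of Ptch1 with the higher co-receptor values. Their absolute size depends on the annotated length of Ptch1, which is 14185 bases as a union of exons and 10383 bases in the longest transcript.

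**Figure D4:**
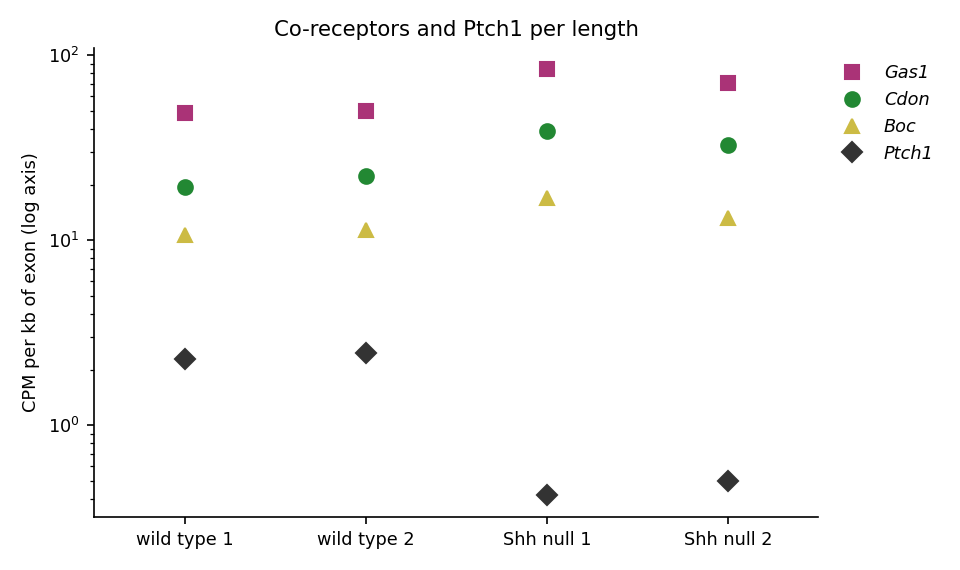
CPM per kilobase of exon (log axis) of Gas1, Cdon, Boc and Ptch1 in the 4 libraries (horizontal axis). The order Gas1, Cdon, Boc, Ptch1 is the same in every library, and Ptch1 is lower in Shh null (0.461 against 2.38) while the other genes are higher.

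The other genes of the pathway were taken as a list of 35, of which 31 were tested. In limma 4 fell, 0 rose and 27 did not pass the test, with a median log2 fold change of 0.08. Without the library Shh null 1, 2 were called lower. Before adjustment, 7 of the 31 had a limma p under 0.05 and a higher value in Shh null, against 9.5% of all tested genes. DESeq2 called 1 gene higher, Gli2, and edgeR called 0. Among the ligands Shh was the 1 tested gene and was lower (log2 fold change -1.47). Among genes for processing and release of the ligand 0 of 4 were called in limma, edgeR or DESeq2, with 2 higher at a limma p under 0.05 before adjustment. The largest difference of these was that of Scube3, which encodes a secreted protein that takes up the ligand (means of 38.5 and 53.1 CPM; log2 fold change 0.45 ± 0.13 SE, adjusted p of 0.114 in limma).

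Of the 3 receptor and antagonist genes 2 fell. Ptch1 had a log2 fold change of -2.21 (limma, adjusted p = 6.18e-05). Hhip, which encodes a membrane protein that sequesters the ligand, fell from 3.51 and 3.53 CPM to 0.332 and 0.549 CPM (log2 fold change -1.65). The 1 CPM added before taking logs shrinks changes that involve such low values. The authors' deposited log2 fold changes were -3.00 for Hhip, -5.71 for Gli1, -2.37 for Ptch1 and -1.79 for Shh. Smo, the gene of the signal transducer Smoothened, named after its values were seen, had means of 250.2 ± 16.6 and 249 ± 16.7 CPM (SD, n = 2) without a call (log2 fold change -0.01).

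The other surface proteins that bind hedgehog ligands are the glypicans, which carry heparan sulfate, and the large endocytic receptor Lrp2. Of these 7 genes 0 were called in limma, edgeR or DESeq2, and 3 had a higher value with a limma p under 0.05 before adjustment (9.5% of all tested genes). Gpc5 had the largest difference, at 9.37 and 10.4 CPM in wild type and 15.2 and 15.5 CPM in Shh null (log2 fold change 0.59 ± 0.14 SE, limma adjusted p = 0.0682). Its difference was close in size to that of Gas1, but it was not called. Of the 16 signal transducer genes Gli1 was called lower (16.6 and 16.0 CPM in wild type, 0.249 and 0.366 CPM in Shh null; log2 fold change -3.72), and 15 were not called. Gli2, chosen for mention after its values were seen, was at 11.5 ± 0.15 and 18.3 ± 2.42 CPM (log2 fold change 0.62 ± 0.15 SE, limma adjusted p = 0.0625).

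**Figure D5:**
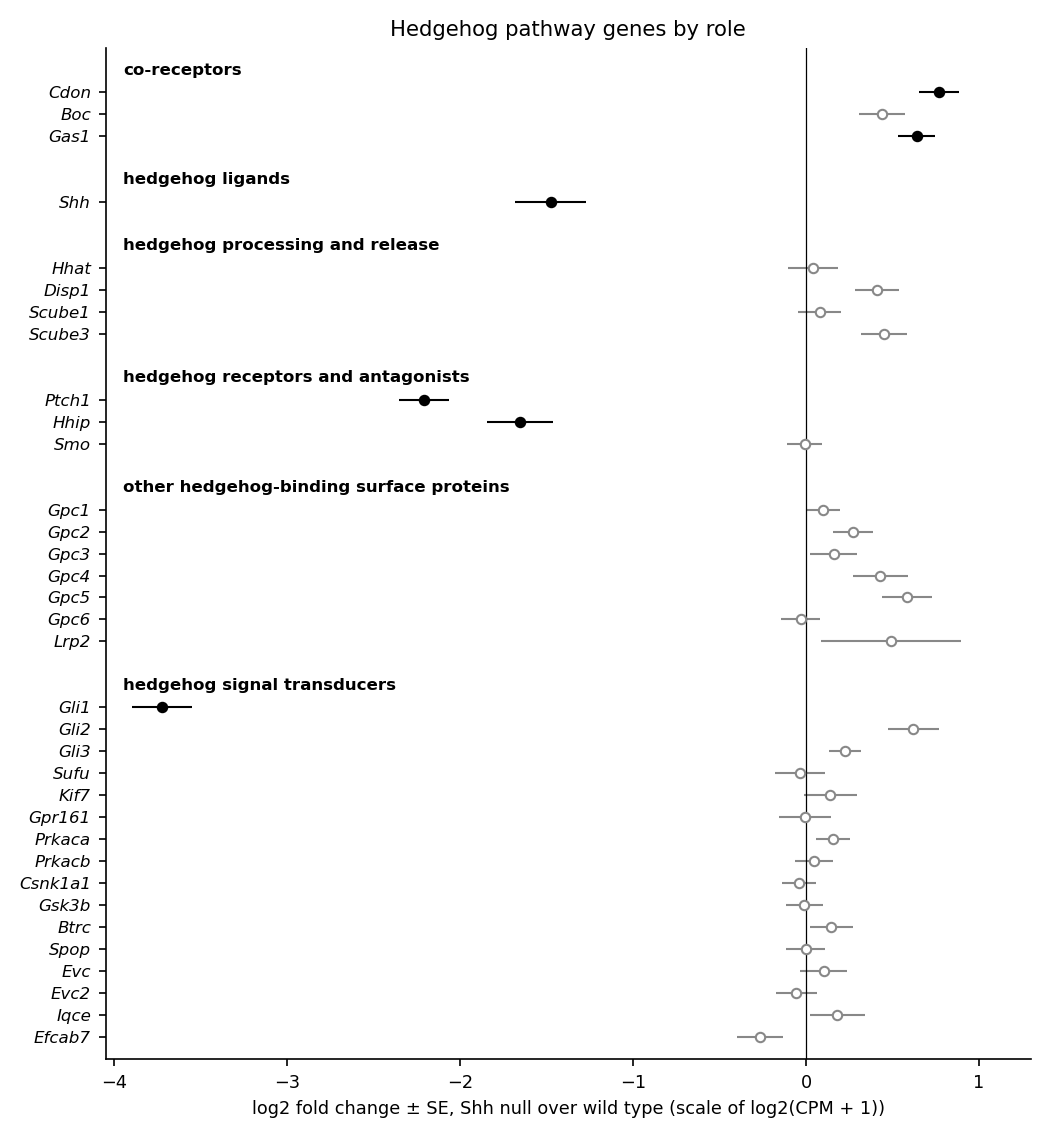
Log2 fold change ± SE of Shh null over wild type (horizontal axis) of the 3 co-receptor genes and the 31 tested pathway genes, grouped by role; black symbols were called by limma. Cdon and Gas1 are the called genes to the right of 0, and Shh, Ptch1, Hhip and Gli1 are those to the left.

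Of the tested genes related to the co-receptors by structure or interaction, 0 were called in limma. Of 15 tested relatives and partners of Cdon and Boc, which include netrin receptors, netrins, cadherins and cytoplasmic partners, 0 were called by limma, edgeR or DESeq2, and before adjustment limma gave a p under 0.05 to 2 genes with higher and 1 with lower values (median log2 fold change 0.08). Ntn4, a netrin gene, had the largest difference (2.35 ± 0.647 and 3.66 ± 0.331 CPM; log2 fold change 0.49, limma adjusted p = 0.231). Gas1 resembles the GDNF family receptors, of which 3 were tested. None of these was called by limma, edgeR or DESeq2, and 1, Gfra3, had lower values with a limma p under 0.05 before adjustment (1.35 ± 0.119 and 0.586 ± 0.0517 CPM; adjusted p = 0.162).

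Of 8 markers of the limb mesenchyme 3 were called higher (Prrx1, Prrx2 and Twist1), 1 was called lower (Fgf10) and 4 were not called. Before adjustment 5 of them were higher and 1 lower with a limma p under 0.05. The 8 markers summed to 882 to 924 CPM in wild type and 1252 to 1275 CPM in Shh null. Most of this sum came from Prrx1 (means of 449 and 634 CPM) and Twist1 (181 and 293 CPM), so ratios to it mainly reflect these genes. Relative to this sum Cdon was 1.22 times as high in Shh null as in wild type and Gas1 1.12 times. Neither overlapped between the groups, but the gaps were small. For Cdon the ratio was 0.201 for library Shh null 2, against 0.187 for library wild type 2. The Gas1 ratio of Shh null 2 was 0.168, against 0.163 for wild type 1. By CPM, 25.1% of all tested genes separated in this direction, a share not computed for these ratios. Boc was 0.981 times as high relative to the marker sum, and its groups overlapped. Of 9 anterior genes 7 were called higher and 0 lower (edgeR 7 and DESeq2 8 called; 9 higher and 0 lower with a limma p under 0.05 before adjustment), and their sum was 680 to 837 CPM in wild type and 1250 to 1277 CPM in Shh null. Of 9 posterior genes 6 were called lower and 0 higher (2 higher and 7 lower with a limma p under 0.05 before adjustment), and their sum was 403 to 519 CPM in wild type and 119 to 134 CPM in Shh null. Those 2 were Tbx2 (log2 fold change 0.49) and Tbx3 (0.48), named after their values were seen, which were not called. Both had higher values without overlap, as 25.1% of all tested genes did. The choice of these lists partly builds in their direction, and the part of anterior, posterior or mesenchymal cell shares in the co-receptor values was not tested.

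Other cell types that a dissected forelimb can hold and that may express co-receptor genes were also measured. Myogenic precursor genes, relevant because Cdon and Boc act in muscle differentiation, summed to 62.3 to 68.1 CPM in wild type and 64.3 to 71.8 CPM in Shh null, with 0 of 5 tested genes called by limma, edgeR or DESeq2 and 1 lower with a limma p under 0.05 before adjustment. Macrophage genes summed to 11.7 to 13.2 and 21.3 to 22.8 CPM, with 1 of 6 called higher. Before adjustment 4 of the 6 were higher with a limma p under 0.05, against 9.5% of all tested genes. The median log2 fold change of the 6 was 0.59. Surface ectoderm genes summed to 313 to 330 and 372 to 380 CPM, with 0 of 8 called by limma or edgeR and 1 by DESeq2. Of these 8, 3 were higher with a limma p under 0.05 before adjustment. Neural crest genes summed to 22.6 to 24.1 and 32.4 to 34.2 CPM, with 1 of 3 called higher and the defining marker Foxd3 at 0 in at least 1 library. Somite and trunk mesoderm genes summed to 84.7 to 110.4 and 66.2 to 81.2 CPM, without overlap; 1 of 5, Hoxb9, was called higher, and 2 had lower values with a limma p under 0.05 before adjustment. Erythroid genes summed to 2946 to 11005 CPM in wild type, highest in wild type 1, and 3736 to 6343 CPM in Shh null, endothelial genes to 182 to 237 and 213 to 217 CPM, and neural genes to 8.21 to 9.62 and 9.24 to 9.50 CPM. Each of these 3 sums overlapped between the genotypes, and 0 of 7, 0 of 8 and 0 of 1 tested genes were called by limma, edgeR or DESeq2, or had a limma p under 0.05 before adjustment. The neural markers Sox1 and Sox2 were at 0 in at least 1 library. The part of these cells in the co-receptor results was not tested.

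The profile of each co-receptor was compared with 10157 other genes of at least 5 CPM by the Euclidean distance between centred log2(CPM + 1) values over the 4 libraries. The genes nearest to Cdon were Gpr153 (distance 0.0556), Nap1l3 (0.0561), Srgap3 (0.0675) and Ptpru (0.0818), all 4 of them called higher. Choosing by distance to a called gene largely builds in these calls, which 1.24% of all tested genes had. Nearest to Gas1 were Cd97 (0.0349), Fam214a (0.0364), Maf (0.0503) and Apoe (0.0532), and nearest to Boc were Chst2 (0.0243), Foxp2 (0.0246), Cacnb3 (0.0305) and Dchs1 (0.0409). Chst2 stood at 18.3 and 19.1 CPM in wild type and 28.9 and 22.3 CPM in Shh null, with the same high first Shh null library as Boc. Gas1 was the 30th nearest gene to Cdon (distance 0.167), and Boc the 237th (0.347). For Gas1, Cdon ranked 70th and Boc 158th, and for Boc, Gas1 ranked 383rd and Cdon 1436th. Cdon and Gas1 were thus near each other among the 10157 genes, but no co-receptor was among the 4 nearest genes of another. With 4 libraries this likeness is a description only.

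Genes beside the co-receptors on the chromosome were read in the same fit. Of the 18 nearest tested protein-coding genes, 3 on each side of each co-receptor gene, 0 were called by limma or edgeR and 1, Golm1, by DESeq2 (lower), and 2 had a limma p under 0.05 before adjustment, against 18.5% of all tested genes. Their log2 fold changes ran from -0.36 for Golm1, near Gas1, to 0.36 for Ccdc80, near Boc, with a median of -0.03. The gene closest to Cdon, Ddx25, lies 29.0 kb away and was at 17.0 ± 1.17 and 16.7 ± 1.40 CPM (SD, n = 2). The nearest to Boc, Spice1, lies 96.6 kb away and was at 43.9 ± 2.44 and 51.6 ± 3.76 CPM.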

How the data were processed

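Total RNA was extracted with TRIzol and sequenced as Illumina libraries, per the labels' protocols. The submitters' processing notes name TopHat2 2.0.9, SAMtools, HTSeq 0.5.4p5, edgeR 3.4.2 and build mm10. Not given in the sources used here: which step each did, the gene models and how strand was treated. The authors deposited 1 signal value per gene and library, called normalized counts. All values (100%, within 0.001 reads) were whole multiples of the smallest value in their column, so whole reads were recovered; recomputed TMM factors differed from the deposited scale by 0%, so the unit is TMM-scaled CPM. A count of 0 allows up to 3 reads, 0.105 to 0.165 CPM. A second table gives the authors' own log2 fold changes with the p-values and false discovery rates the authors deposited; it was only quoted.

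Genes of at least 1 CPM in 2 libraries (13224 tested, 4488 below) were fitted as log2(CPM + 1) with limma 3.58.1 (eBayes with trend, R 4.3.3) on genotype alone, and called at a Benjamini-Hochberg adjusted p under 0.05. edgeR 4.0.16 (quasi-likelihood, 324 calls), DESeq2 1.42.0 and other scalings, pseudocounts, filters and omitted libraries were alternatives. The scaling, the filter and the limma, edgeR and DESeq2 fits were tested on simulated data. Coordinates and lengths are from GENCODE M21; 12443 of 13224 tested symbols (94.1%) matched 1 gene. The genes and lists were chosen with earlier results of these data known. Beyond the co-receptors, named genes are their 4 nearest profiles, chromosomal neighbours, and in each pathway list the called genes or else the largest change; others are said to be chosen after their values. A gene of the pathway list is not reported here and is left out of its counts.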

Additional observations from a re-analysis of the deposited data

How the results depend on the processing

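Every alternative kept the 3 co-receptor genes higher in Shh null. In the fits that leave out 1 library this direction was fixed, because the groups did not overlap. Over the fits that leave out 1 library, the log2 fold change was 0.64 to 0.90 for Cdon, 0.52 to 0.76 for Gas1 and 0.26 to 0.62 for Boc, and 0 to 2 co-receptor genes were called. Without the intensity trend 0 were called, at log2 fold changes of 0.77 (Cdon) and 0.64 (Gas1); the cause was not tested. Over all tested genes, 253 were called higher and 273 lower by DESeq2, 79 and 91 without a filter on low values, 108 and 99 without the trend, and 15 to 386 higher and 41 to 416 lower when 1 library was left out (15 and 41 without Shh null 1, 39 and 60 without Shh null 2, 271 and 188 without wild type 1, 386 and 416 without wild type 2). Of the hedgehog list 1 gene was called higher by DESeq2, 2 with total-read scaling and 0 to 3 with 1 library left out, and 2 to 4 were called lower with 1 library left out (2 without Shh null 1). The replicate numbers share only a number: with the replicate block 220 genes were called higher and 176 lower, and 2 co-receptor genes were called. Deviations of wild type 1 and Shh null 1 correlated at -0.20 across genes; with crossed numbers, an alternative chosen after seeing the data, 641 were called higher and 745 lower, with 4 of the hedgehog list higher and 3 co-receptor genes called (Boc at its unchanged 0.44). Without length scaling the wild-type shares were 45.2% Cdon, 13.7% Boc and 41.0% Gas1, and by the longest transcript 26.2%, 13.4% and 60.3%. Each genotype had 2 libraries, and for the 3 co-receptor genes the spread between the Shh null libraries was larger than the counting error. What limited the comparisons of other genes was not tested, and some of them had few reads.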

Other observations

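The hedgehog pathway and related lists held 7 genes below the filter on low values, which were not tested: the ligand genes Ihh and Dhh, Disp2 and Scube2 of ligand release, the receptor genes Robo3 and Ret, and Gfra2. In 7 of 7 both Shh null libraries lay above both wild-type libraries, a pattern that 24.2% of all 4488 genes below the filter had, and which was noticed after the values were seen. Dhh, the gene of a second hedgehog ligand, was at 0.456 and 0.441 CPM in wild type and at 0.912 and 1.01 CPM in Shh null, from 21 and 44 reads in all. The others had 3 to 9 reads in wild type and 9 to 21 in Shh null over both libraries, so single reads moved their values.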
